A study of Mus musculus with 6 samples.

Results

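The cytosolic ribosomal protein genes were studied in mouse splenic B cells undergoing IgA class switching, in WT and *Hif1a* KO cells. Members were all protein-coding genes whose symbol in GENCODE vM21 starts with Rpl or Rps and a number, with *Rpsa*, *Rplp0*, *Rplp1* and *Rplp2* added and with the Rps6k kinases and the symbols containing -ps left out. This gave 86 of the 46983 genes listed, of which 52 carry Rpl symbols (large subunit) and 34 carry Rps symbols (small subunit). The large-subunit genes were 46 core genes and 6 paralogs, and the small-subunit genes were 31 core genes, 2 paralogs and *Rps19bp1*, which encodes a protein that binds RPS19 and is not itself a ribosomal protein. The rule leaves out, among others, *Fau* and *Rack1*, which also encode ribosomal components. Bulk RNA-seq was performed on 3 WT and 3 *Hif1a* KO libraries of splenic B cells collected on day 3 of culture (72 h) in a mixture of 5 μg/ml LPS, the B-cell survival factor BAFF, and the switch-directing cytokines IL-5 and TGF-β (10 ng/ml for each of these 3). In the *Hif1a* KO cells, floxed *Hif1a* alleles are deleted by a cre recombinase under the control of *Mb1* (*Cd79a*), which is active from early in the B-cell lineage. The WT cells came from littermates that carried cre with a single floxed allele or floxed alleles without cre, and which of these each WT library was is not given. The mice were on the C57BL/6 background and their age is not given for these cultures. Nothing states that the libraries of a genotype came from separate mice or cultures, so p-values measure the spread between these libraries, which may be technical. Where 3 values are given for a genotype, they stand in the order of replicates 1, 2 and 3.

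Each cytosolic ribosome holds a single copy of nearly every ribosomal protein, and the genes for these proteins are transcribed at high and similar rates in dividing cells. Their mRNAs commonly start with a cytosine followed by a run of pyrimidines, the 5′ terminal oligopyrimidine (TOP) motif, through which mTORC1 and the RNA-binding protein LARP1 control their translation. B cells that are activated by LPS enlarge and divide, and those that become plasma cells secrete large amounts of antibody, both of which depend on ribosomes. Several ribosomal proteins have duties outside the ribosome, among them RPL5 and RPL11, which bind the ubiquitin ligase MDM2 when ribosome assembly is disturbed.

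The start regions of 10 members are shown because they mark the class of mRNA to which these genes belong and because paralogs and core genes differ there. Sequences were taken from RefSeq promoters on GRCm38.p6 (mm10), which held an entry for 66 of the 86 genes and 78 annotated starts in all. Each line gives 30 bases before and 20 bases from the annotated start onwards, 5′ to 3′ on the gene's strand, and capitals mark the unbroken pyrimidines that begin at the annotated start.
*Rps6* (chr4:86857348-86857397, minus strand): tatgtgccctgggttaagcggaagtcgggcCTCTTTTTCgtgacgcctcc
*Rpl28* (chr7:4792935-4792984, plus strand): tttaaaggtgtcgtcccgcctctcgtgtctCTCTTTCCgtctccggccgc
*Rps15a* (chr7:118116128-118116177, minus strand): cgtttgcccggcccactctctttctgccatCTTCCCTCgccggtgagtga
*Rplp2* (chr7:141447621-141447670, plus strand): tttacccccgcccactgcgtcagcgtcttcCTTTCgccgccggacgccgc
*Rps27* (chr3:90213629-90213678, minus strand): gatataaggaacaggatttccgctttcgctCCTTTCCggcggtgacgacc
*Rps27rt* (chr9:114982720-114982769, minus strand): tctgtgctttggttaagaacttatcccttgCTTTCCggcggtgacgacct
*Rps27l* (chr9:66946056-66946105, plus strand): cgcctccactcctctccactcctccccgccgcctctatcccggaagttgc
*Rpl22l1* (chr3:28805478-28805527, plus strand): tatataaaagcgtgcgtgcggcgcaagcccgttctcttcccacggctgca
*Rps2* (chr17:24720033-24720082, plus strand): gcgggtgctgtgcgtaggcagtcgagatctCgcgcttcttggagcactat
*Rplp0* (chr5:115559437-115559486, plus strand): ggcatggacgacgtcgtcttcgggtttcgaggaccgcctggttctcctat
*Rps6*, *Rpl28*, *Rps15a*, *Rplp2*, *Rps27* and *Rps27rt* start with a cytosine and at least 4 further pyrimidines. The annotated starts of *Rps27l* (the first of 2), *Rpl22l1* and *Rplp0* are purines, and that of *Rps2* is a lone cytosine. *Rps27* and *Rps27rt* share a run of 38 bases within the first 50 bases of their transcripts, from position 2 of *Rps27* and position 1 of *Rps27rt*, counted from the annotated start. The sequence before the start differs between them.

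Over all 78 member starts, 14 (17.9%) had a cytosine followed by at least 4 pyrimidines, against 2.51% of the 32851 promoters of the table. Annotated starts can lie some bases away from the true start, and a start without this pattern says only that the letters are not at the annotated position. Within the windows of 250 bases before to 50 bases after the start, searched on both strands, CCGGAAG, the core bound by ETS factors, was present in 27 member promoters (34.6%) and in 8.86% of all promoters. AAGATGG, a core of YY1 sites, was present in 12 (15.4%) and in 6.34% of all. ACGTG, a common form of the core of hypoxia response elements, was present in 25 (32.1%) and in 19.6% of all, and 8 of the member promoters (10.3%) held the E-box CACGTG, which contains these letters, against 7.15% of all. TATAA was present in 18 (23.1%) and in 24.9% of all. The median GC content was 58.2% in the member promoters and 52.7% in all, and no binding was measured here.

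The libraries held 25.0 to 37.2 M reads in the FPKM denominator, and at the lowest depth 1 read on a gene of 1 kb was worth 0.040 FPKM. All 8 B-cell markers were detected, with a summed FPKM of 3560 to 4403 in WT and of 3477 to 4659 in *Hif1a* KO libraries. The libraries did not separate by genotype, since WT replicates 2 and 3 stood apart on the first principal component (54.7% of the variance, at 26.2 and 25.9) and WT replicate 1 lay among the KO libraries (−19.5 to −7.10), at −15.7. The same libraries, WT replicates 2 and 3, held the highest summed FPKM of the 12 macrophage and monocyte markers (266 and 205, against 117 to 149 in the other 4 libraries) and the lowest of the 8 plasma cell markers (951 and 902, against 1018 to 1766). Most of the macrophage and monocyte sum came from *Adgre1* and *Mpeg1*, which were present in every library. *Adgre1* had an FPKM of 59.8, 91.1 and 81.1 in WT and 67.7, 69.7 and 55.5 in KO libraries. *Mpeg1* had 48.0, 95.3 and 86.1 in WT and 41.9, 69.9 and 51.5 in KO libraries. Only 6 of the 12 markers had a mean FPKM of at least 0.5, and *Mrc1*, 1 of these, had a slightly higher mean in KO libraries. *Lyz2*, the lysozyme of myeloid cells, had an FPKM of 6.18, 58.3 and 26.2 in WT and of 0.60, 2.23 and 3.70 in KO libraries. The 8 neutrophil markers summed to 41.9 in WT replicate 1 and to at most 0.527 elsewhere, with *S100a9* at 19.9 and at 0 in the other 5 libraries. By the study's methods, such cultures were started from follicular B cells sorted from spleen by CD21 and CD23. The part of other cells in the values below was not tested. In bulk RNA, fewer cells of a type and less RNA per cell cannot be told apart.

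FPKM values are scaled by gene length and depth. Comparisons between genes rely on the lengths used and on the assignment of reads, and the annotation release behind both is not given. Ribosomal protein mRNAs were among the most abundant of these cells. Of the 86 members, 59 reached a mean FPKM of 1000 over the 6 libraries and 58 were among the 100 genes with the highest mean FPKM. Together they made up 18.6%, 17.2% and 17.9% of the summed FPKM in WT libraries and 18.4%, 17.9% and 18.7% in *Hif1a* KO libraries. As a share of reads, which gives short mRNAs less weight, this was 9.65% to 10.8% in WT and 10.1% to 11.0% in KO libraries. The median FPKM of the 77 core genes was 1658, and 60 of them lay within 2 times of this median in either direction. The small-subunit core genes had a median FPKM of 1959 (quartiles 1399 and 2619) and the large-subunit core genes one of 1528 (924 and 1936). Across the core genes, which are not independent replicates and share libraries and sequence composition, Spearman's rho between pairs of libraries was 0.979 to 0.995.

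The highest levels belonged to *Rplp0* and *Rplp1*, which encode components of the stalk that recruits elongation factors to the large subunit. The FPKM of *Rplp0* was 5579, 5036 and 5065 in WT and 5273, 5079 and 5834 in *Hif1a* KO libraries. *Rplp1* had an FPKM of 5301, 4857 and 4931 in WT and 5200, 4812 and 5368 in KO libraries. These are followed by *Rps26*, whose protein lies at the mRNA exit channel, at 3880, 3509 and 3825 in WT and 3645, 3606 and 3765 in KO libraries. *Rpl41*, which encodes the smallest ribosomal protein, had an FPKM of 3873, 3338 and 3473 in WT and 3796, 3591 and 3671 in KO libraries. *Rps18*, of the head of the small subunit, had an FPKM of 3302, 2929 and 3069 in WT and 3139, 3096 and 3438 in KO libraries. *Rplp0* and *Rplp1* overlapped in their ranges over libraries, but within each library *Rplp0* was the higher. *Rps26* and *Rpl41* also overlapped, and *Rps26* was the higher in every library but *Hif1a* KO replicate 1.

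**Figure D1:**
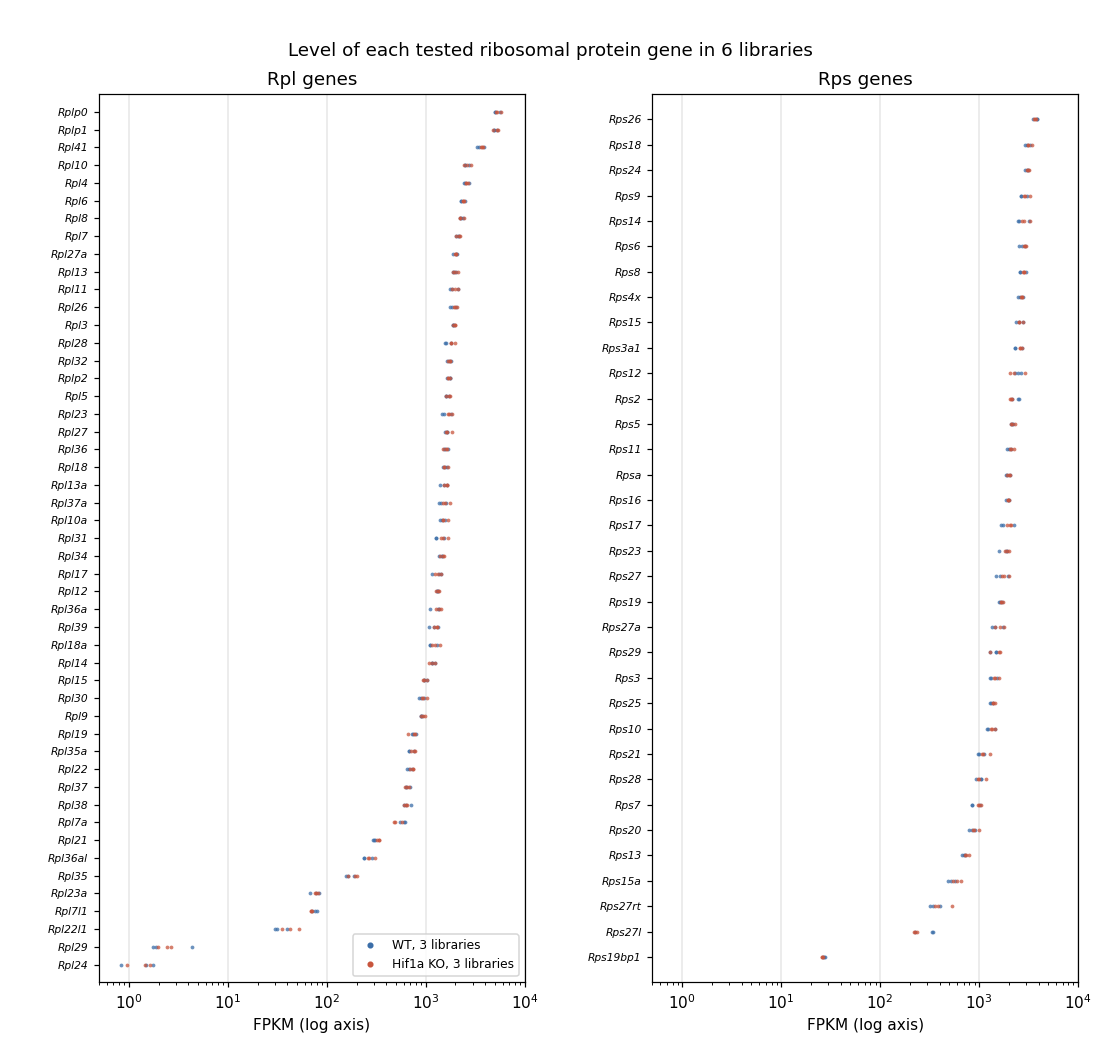
FPKM (log axis) of the 83 ribosomal protein genes tested, sorted by mean, with Rpl genes on the left and Rps genes on the right. Each point is a library, blue for the 3 WT and red for the 3 *Hif1a* KO libraries, and most genes lie around the core median of 1658 while *Rpl24* and *Rpl29* lie near 1 to 4.

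Only 3 core genes had a mean FPKM below 10% of the core median, namely *Rpl24*, *Rpl29* and *Rpl23a*, and another 2, *Rpl35* and *Rpl21*, lay between 10% and 20% of it. *Rpl23a*, *Rpl35* and *Rpl21* were singled out after their values were seen. *Rpl24*, a protein at the interface of the subunits, was listed at 0.828, 1.74 and 1.48 in WT and at 1.46, 1.63 and 0.968 in *Hif1a* KO libraries, which rests on 127 reads in all. *Rpl29*, a small basic protein of the large subunit, was listed at 4.39, 1.88 and 1.76 in WT and 1.99, 2.46 and 2.69 in KO libraries, from 348 reads. The levels of both were far below those of other proteins present at a single copy per ribosome. Ribosomal protein mRNAs have many processed pseudogenes, and the handling of reads with several alignments is not given in the sources used here, so these levels are uncertain. The share of 50-base words of a gene's protein-coding transcripts that occur in no other annotated gene was 18.3% for *Rpl24*, 14.3% for *Rpl23a*, 4.91% for *Rpl35*, 64.6% for *Rpl29* and 80.3% for *Rpl21*. Both *Rpl29* and *Rpl21* share at least 1 such word with 81 pseudogenes, and the core gene with the most was *Rpl7a*, with 121. *Rpl24* overlaps the annotated gene *Gm28037* and *Rpl35* overlaps *Wdr38*, and each shares the most words with that gene. Of the 86 members, 38 overlap no other annotated gene, *Rpl29* among them. The part of overlapping genes in these low levels was not tested.

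Of the 5 core genes below 20% of the core median, 3 had under 20% unique words, and of the other 72 core genes 7 did. The 10 core genes with under 20% unique words had a median FPKM of 1449 and the other core genes one of 1665, and Spearman's rho between the unique share and the mean FPKM was −0.055 across the 77 core genes, which share libraries. *Rps6* had 15.4% and *Rpl5* 14.6% unique words, and both had an FPKM above 1500 in every library. The pseudogene rows of the family numbered 267, of which 81 were at 0 in all libraries and 17 had a mean FPKM of at least 100. Summed, they came to 5600, 4881 and 4994 FPKM in WT and to 5392, 5387 and 5496 in *Hif1a* KO libraries, which is 3.83% to 4.11% of the member sum in each library. Reads of a core gene and of its processed pseudogenes cannot be told apart where the sequences are alike.

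The comparison of *Hif1a* KO with WT B cells asks whether loss of HIF-1α changes the mRNA supply for ribosome production during IgA class switching. Most members had slightly higher values in *Hif1a* KO cells, but no member was differentially expressed. The test used log2(FPKM + 1), which understates the changes of low genes, in the 13312 genes whose mean FPKM reached 0.5, by limma with a variance trend and Benjamini-Hochberg adjustment over all of them. It covered 83 members, since *Rpl10l* was listed at 0 in all libraries and *Rpl39l* and *Rpl3l* had a mean FPKM under 0.5. Of these 83, 0 were differentially expressed at an adjusted p under 0.05, as were 0.0% of all genes tested. At an unadjusted p under 0.05 there was 1 member, *Rpl21*, against 6.98% of all genes tested. The adjusted p of the members was 0.626 to 0.998. By limma-voom on reads recovered from the FPKM values, 0 members and 0 of all genes tested passed the adjusted threshold.

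The log2 fold change was above 0 in 69 of 83 members (83.1%), 40 of 49 large-subunit and 29 of 34 small-subunit genes, and in 42.1% of all genes tested, while under quantile normalization it was above 0 in 52 of the 83. The median was 0.040 for the large-subunit genes, 0.090 for the small-subunit genes and −0.028 for all genes tested. Under the scaling, filter and leave-one-out alternatives the medians stayed above 0, from 0.011 to 0.085 for the large and from 0.029 to 0.135 for the small subunit. The other 470 genes whose mean FPKM reached 200 had a median of 0.010, and 52.3% of them were above 0. Among the other 1589 protein-coding genes with an apparent length of at most 1000 bases, the median was −0.036 and 39.5% were above 0. These medians are given as descriptions, with no test of the family as a whole.

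The members varied little between libraries of a genotype. Their median SD within a genotype was 0.085 on the log2 scale, against 0.131 over all genes tested and 0.116 in the other abundant genes. The 95% interval of the log2 fold change lay inside ±0.5 (1.41-fold in either direction) in 79 of the 83 members, against 70.9% of all genes tested. The 4 others were *Rpl22l1*, *Rpl29*, *Rps27l* and *Rps27rt*. For the core genes, the median interval reached 0.20 to either side of the estimate.

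**Figure D2:**
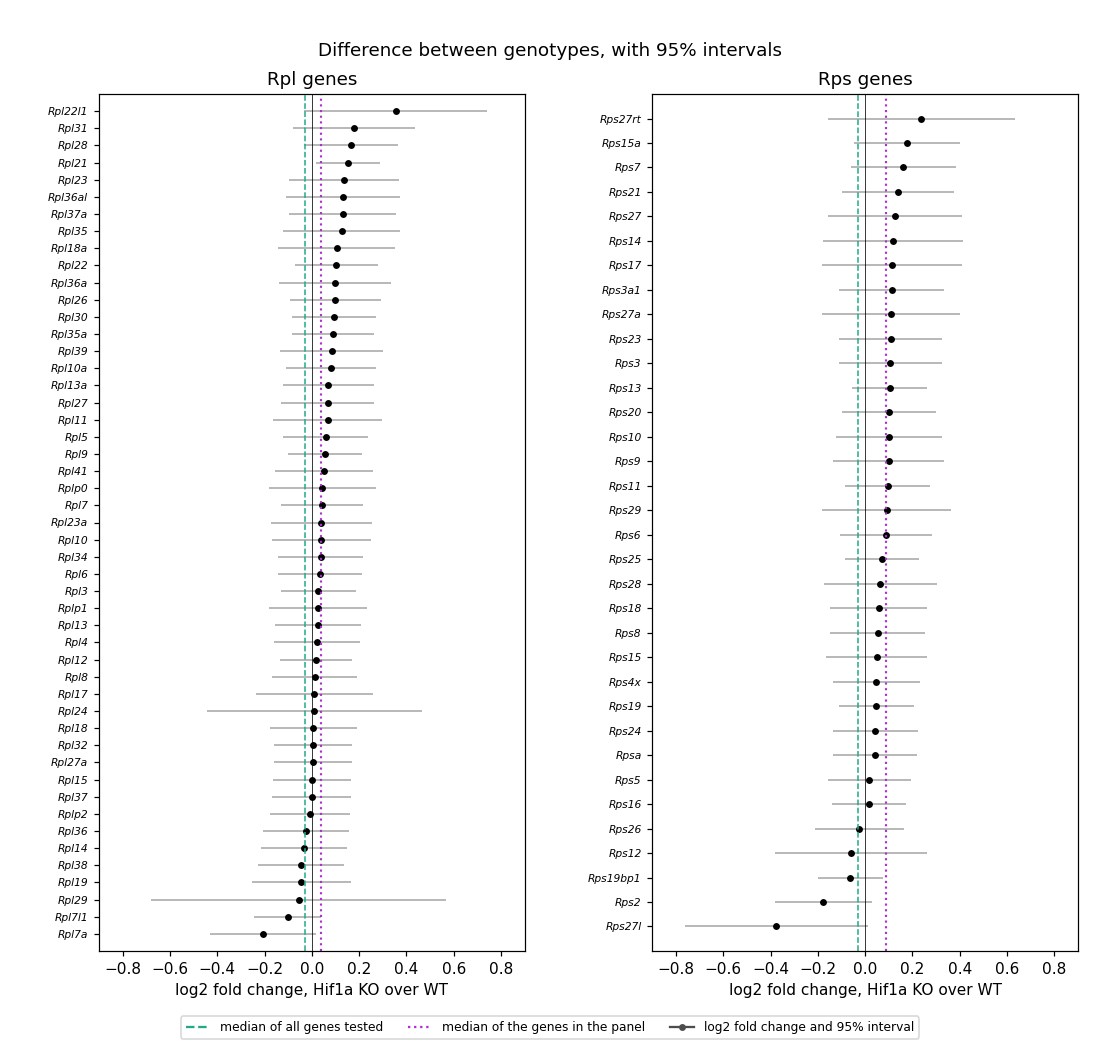
Log2 fold change (*Hif1a* KO over WT, on log2(FPKM + 1)) of the 83 members tested, sorted within the Rpl genes (left) and Rps genes (right). Points are estimates and bars 95% intervals from limma, and the dotted lines at 0.040 and 0.090 are the medians of the panels while the dashed line at −0.028 is the median of all genes tested. All intervals but that of *Rpl21* include 0.

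The family moved together from library to library. Taking each gene relative to its mean over the 6 libraries on the log2 scale, the median large-subunit gene stood at 0.055, −0.076 and −0.030 in WT and at 0.020, −0.028 and 0.079 in *Hif1a* KO libraries. The small-subunit genes followed at 0.063, −0.117 and −0.050 in WT and at 0.013, −0.017 and 0.105 in KO libraries. The order of the 6 libraries was the same for both subunits. *Hif1a* KO replicate 3 had the highest value of 45 of the 83 members and WT replicate 2 had the lowest of 55. The ratio of summed small- to large-subunit FPKM was 0.861 ± 0.011 in WT and 0.867 ± 0.002 in KO libraries (SD, n = 3 each).

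WT replicate 1 did not lie with the other WT libraries. Its value was above both other WT values in 65 of 83 members, against 33.3% of all genes tested, and it lay within the range of the KO libraries in 62 and above that range in 17. The median large-subunit gene was higher in WT replicate 1 than in the mean of WT replicates 2 and 3 by 0.12 and the median small-subunit gene by 0.15, while the KO mean exceeded WT replicates 2 and 3 by 0.080 and 0.13. The distance between WT libraries was thus as large as that between genotypes. Without WT replicate 1, 71 of 83 members were higher in KO cells, against 40.5% of all genes tested. The medians were then 0.080 and 0.13 for the large and small subunit and −0.050 for all genes. At an unadjusted p under 0.05, 13 members were then higher and 3 lower, against 11.0% and 18.9% of all genes tested, and 1 member, *Rps27l*, passed the adjusted threshold, against 9.40% of all genes tested (1251). The share of reads on mitochondrially encoded genes was 1.62%, 1.07% and 1.17% in WT and 1.28%, 1.66% and 1.71% in KO libraries, so WT replicates 2 and 3 had the lowest values here too, and its part in the result was not tested.

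**Figure D3:**
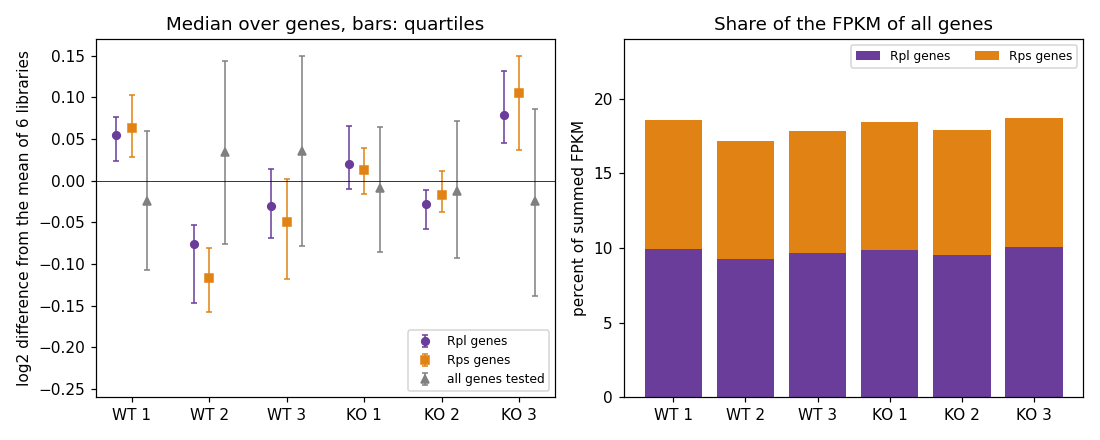
Left, log2 difference of each library from the mean of the 6 libraries for Rpl genes (circles), Rps genes (squares) and all genes tested (triangles), as the median with bars to the quartiles over genes; WT 2 is lowest and KO 3 highest for both subunits. Right, percent of the summed FPKM of all genes held by Rpl and Rps genes, which ranges from 17.2% (WT 2) to 18.7% (KO 3).

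Members with lower values in *Hif1a* KO cells were few. *Rps27l*, a paralog of *Rps27* that is known as a target of p53, had the most negative log2 fold change of the family. It was measured at an FPKM of 223, 334 and 343 in WT and of 237, 219 and 225 in *Hif1a* KO libraries. WT replicate 1 lay with the KO libraries, so the groups overlapped. This gave a log2 fold change of −0.38 (SE 0.16, adjusted p = 0.626 by limma), and one of −0.58 without WT replicate 1 (SE 0.059, adjusted p = 0.006). Leaving out any other single library gave −0.41 to −0.27, and the adjusted p over all alternatives ranged from 0.006 to 1. *Rps27l* was expressed at 11.5%, 22.3% and 21.2% of the FPKM of *Rps27* in WT and at 13.9%, 12.3% and 11.2% in KO libraries. For the log2 ratio the exact two-sided permutation test gave p = 0.3, where 3 against 3 libraries cannot go below 0.1.

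*Rpl7a*, which encodes a large-subunit protein, had an FPKM of 605, 554 and 623 in WT and 486, 482 and 581 in *Hif1a* KO libraries. KO replicate 3 lay within the WT range while the others lay below it, with a log2 fold change of −0.20 (SE 0.094, adjusted p = 0.626 by limma). *Rpl7a* shares sequence with 121 pseudogenes and only 18.8% of its words are unique. *Rps2*, a small-subunit protein at the mRNA entry channel, had an FPKM of 2170, 2503 and 2520 in WT and 2176, 2062 and 2115 in KO libraries. WT replicates 2 and 3 were nearly equal and WT replicate 1 lay with the KO libraries, as for *Rps27l*. This corresponds to a log2 fold change of −0.18 (SE 0.086, adjusted p = 0.626) and of −0.25 without WT replicate 1 (adjusted p = 0.074, with 0.054 to 1 over all alternatives). *Rpl7l1*, a paralog of *Rpl7* that acts in ribosome assembly in the nucleolus, had an FPKM of 71.6, 78.8 and 75.4 in WT and 69.7, 71.2 and 69.2 in KO libraries, with a log2 fold change of −0.10 (SE 0.060). *Rps19bp1* had an FPKM of 28.0, 27.0 and 26.8 in WT and 25.8, 26.1 and 26.3 in KO libraries, a log2 fold change of −0.062 (SE 0.058). The genotypes did not overlap in *Rpl7l1* and *Rps19bp1*, with the KO libraries lower, as in 6.03% of all genes tested, but their nearest values were close (71.6 and 71.2 for *Rpl7l1*).

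Among the members with higher values in *Hif1a* KO cells, *Rpl22l1*, the paralog of *Rpl22*, had the largest log2 fold change. Its FPKM was 39.8, 30.1 and 31.6 in WT and 52.9, 35.6 and 42.9 in *Hif1a* KO libraries, where WT replicate 1 again lay within the KO range. This gave a log2 fold change of 0.35 (SE 0.16, 95% interval −0.03 to 0.74, adjusted p = 0.626 by limma). *Rpl22* itself had an FPKM of 728, 642 and 678 in WT and 752, 695 and 751 in KO libraries (log2 fold change 0.10, SE 0.074). The FPKM of *Rpl22l1* was 4.94% ± 0.461 of that of *Rpl22* in WT and 5.95% ± 0.979 in KO libraries (SD, n = 3 each, exact two-sided permutation test p = 0.2, with 0.1 as the smallest possible).

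*Rps27rt*, a retrotransposed copy of *Rps27*, had an FPKM of 402, 323 and 343 in WT and of 539, 355 and 381 in *Hif1a* KO libraries. The log2 fold change of 0.24 (SE 0.17) rested on KO replicate 1, without which it was 0.054. Only 8.92% of its words are unique, so its reads can be shared with *Rps27*. *Rps27*, a zinc finger protein of the small subunit, had an FPKM of 1946, 1499 and 1616 in WT and 1705, 1781 and 2018 in KO libraries, and its log2 fold change was 0.13 (SE 0.12). The ratio of *Rps27rt* to *Rps27* was 20.6%, 21.6% and 21.2% in WT and 31.6%, 19.9% and 18.9% in KO libraries, so that KO replicate 1 alone stood apart.

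**Figure D4:**
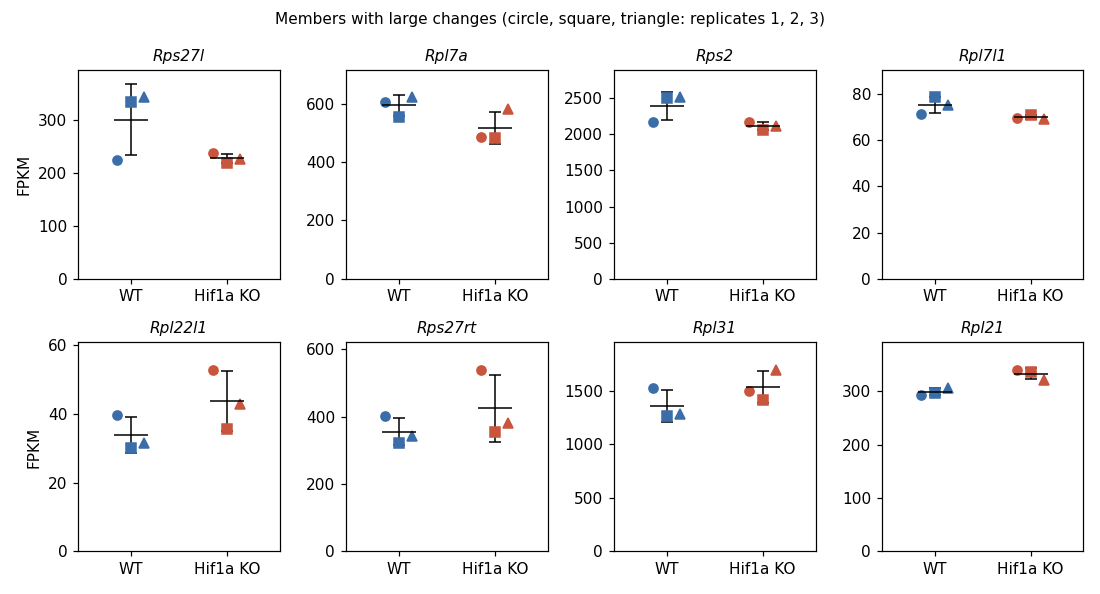
FPKM of 8 members in each library (circle, square and triangle for replicates 1, 2 and 3), with horizontal marks at the group mean and bars of 1 SD (n = 3). In *Rps27l* and *Rps2* the WT circle lies with the KO values, and in *Rpl21* the KO values (321 to 341) lie above the WT values (294 to 307).

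*Rpl31*, a protein at the exit of the peptide tunnel, had an FPKM of 1532, 1267 and 1282 in WT and 1501, 1413 and 1699 in *Hif1a* KO libraries. WT replicate 1 lay within the KO range and WT replicates 2 and 3 below it, and the log2 fold change was 0.18 (SE 0.11). *Rps15a*, of the small-subunit body, had an FPKM of 577, 487 and 523 in WT and 594, 547 and 653 in KO libraries, with a log2 fold change of 0.18 (SE 0.095). *Rpl28*, a large-subunit protein found in animals and plants but not in budding yeast, had an FPKM of 1792, 1567 and 1607 in WT and 1787, 1809 and 1973 in KO libraries, with a log2 fold change of 0.17 (SE 0.084). In these 3 genes the adjusted p was 0.626 to 0.639 by limma, and the pattern of WT replicate 1 was that of the family. *Rpl21*, a large-subunit protein, was the member with the smallest p. Its FPKM was 294, 297 and 307 in WT and 341, 337 and 321 in KO libraries, with no overlap, for a log2 fold change of 0.15 (SE 0.057, adjusted p = 0.626 by limma). Every KO value exceeded every WT value in 3 of 83 members, *Rpl21*, *Rps13* and *Rps25*, against 4.06% of all genes tested, and these were named after their values were seen.

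The remaining paralogs were low. *Rpl36al*, the autosomal paralog of *Rpl36a*, had an FPKM of 286, 239 and 237 in WT and of 268, 260 and 306 in *Hif1a* KO libraries, and *Rpl36a*, the X-linked core gene, one of 1376, 1105 and 1318 in WT and 1417, 1286 and 1354 in KO libraries. Their log2 fold changes were 0.13 (SE 0.10) and 0.10 (SE 0.10), and the paralog stood at 20.1% ± 1.88 of the core gene in WT and at 20.6% ± 1.87 in KO libraries (SD, n = 3 each). The ratio of *Rpl7l1* to *Rpl7* was 3.61% ± 0.281 in WT and 3.26% ± 0.200 in KO libraries. *Rpl7* had an FPKM of 2147, 2023 and 2102 in WT and 2178, 2045 and 2239 in KO libraries. *Rpl3l*, the striated muscle form of *Rpl3*, was listed at 0.268, 0.258 and 0.692 in WT and 0.478, 0.232 and 0.535 in KO libraries, from 36 reads in all. *Rpl39l*, the form of *Rpl39* found in male germ cells, was listed at 0.119, 0.143 and 0.284 in WT and 0.236, 0 and 0.543 in KO libraries, from 26 reads in all. *Rpl10l*, the testis form of *Rpl10*, had 0 reads in all 6 libraries. The 3 paralogs known from muscle or germ cells were thus at or near 0 while their core genes were among the abundant members.

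The core genes with known special duties showed no change that passed the test. *Rpl5* and *Rpl11*, whose proteins form with 5S rRNA the particle that binds MDM2, had close levels. *Rpl5* had an FPKM of 1737, 1593 and 1590 in WT and 1763, 1621 and 1740 in *Hif1a* KO libraries, a log2 fold change of 0.059 (SE 0.075). *Rpl11* had an FPKM of 2104, 1769 and 1828 in WT and 1956, 1864 and 2142 in KO libraries, a log2 fold change of 0.066 (SE 0.097). In both the genotypes overlapped. *Rps6*, the substrate of the S6 kinases downstream of mTORC1, had an FPKM of 2917, 2537 and 2705 in WT and 2961, 2818 and 2888 in KO libraries, with a log2 fold change of 0.089 (SE 0.082). *Rps19*, the gene most often mutated in Diamond-Blackfan anaemia, had an FPKM of 1705, 1596 and 1612 in WT and 1666, 1682 and 1729 in KO libraries, a log2 fold change of 0.048 (SE 0.067). *Rps14*, the haploinsufficient gene of the 5q- syndrome, had an FPKM of 3164, 2531 and 2493 in WT and 2860, 2717 and 3283 in KO libraries. Its log2 fold change was 0.12 (SE 0.12), and WT replicate 1 exceeded the other WT libraries by more than the genotypes differed.

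The genes of the catalytic centre, of the peptide tunnel and of the stalk did not pass the test. *Rpl3*, near the peptidyl transferase centre, had an FPKM of 1953, 1867 and 1879 in WT and 1959, 1885 and 1968 in *Hif1a* KO libraries, and its log2 fold change was 0.028 (SE 0.067, 95% interval −0.13 to 0.19). *Rpl10*, an X-linked gene whose protein joins the large subunit in a late step, had an FPKM of 2725, 2487 and 2502 in WT and 2641, 2445 and 2852 in KO libraries, a log2 fold change of 0.040 (SE 0.088). *Rpl39*, also X-linked, lines the peptide tunnel and had an FPKM of 1337, 1082 and 1203 in WT and 1299, 1223 and 1304 in KO libraries. *Rpl17*, next to the tunnel exit, had an FPKM of 1443, 1154 and 1358 in WT and 1326, 1237 and 1412 in KO libraries, a log2 fold change of 0.011 (SE 0.10). *Rplp2*, the partner of *Rplp1* in the stalk, had an FPKM of 1765, 1631 and 1741 in WT and 1667, 1669 and 1769 in KO libraries. The log2 fold changes of *Rplp0*, *Rplp1* and *Rplp2* were 0.045 (SE 0.095), 0.027 (SE 0.087) and −0.009 (SE 0.071), so none of the stalk genes differed by more than its error. *Rpsa*, which encodes a small-subunit protein also described as a laminin receptor, had an FPKM of 2065, 1869 and 1911 in WT and 2001, 1938 and 2078 in KO libraries, a log2 fold change of 0.042 (SE 0.075). The log2 fold changes of *Rpl41* (0.052, SE 0.087), *Rps26* (−0.025, SE 0.080) and *Rps18* (0.057, SE 0.086) were likewise within their errors.

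The genes around the family were taken from lists of translation and stress genes. Of 2 ribosomal genes outside the naming rule, *Fau* had an FPKM of 1953, 1483 and 1553 in WT and 1602, 1834 and 1955 in *Hif1a* KO libraries, with WT replicates 2 and 3 lowest as in much of the family, and its log2 fold change was 0.12 (SE 0.13). *Rack1*, a scaffold protein of the small subunit, had a log2 fold change of 0.038 (SE 0.072), and 0 of the 2 passed the adjusted threshold. Of 7 genes tested in the list of translation elongation factors, 2 were higher and 5 lower in KO cells and 0 passed. *Eef1e1*, 1 of the 5 (−0.12, SE 0.078), was listed by its symbol and is not itself an elongation factor. The median log2 fold change of the list was −0.036. *Eef1a1*, which brings aminoacyl-tRNA to the ribosome, had an FPKM of 14146, 11569 and 12016 in WT and 13996, 13495 and 13291 in KO libraries, so WT replicate 1 again lay high. *Eif5a*, which relieves stalled ribosomes, had the largest change of this list (−0.21, SE 0.073, adjusted p = 0.626 by limma). Of 12 other mRNAs with a TOP-type start that were tested, 5 were higher and 7 lower, 0 passed and the median was −0.030. All 7 genes tested in the list of ribosomal protein chaperones had lower values in KO cells (median −0.14, with 0 past the threshold). Of all genes tested, 42.1% were higher. Without *Hif1a* KO replicate 3, 6 of the 7 were lower and 1 was higher. *Nap1l1* (−0.059) was counted both here and among the other TOP mRNAs. The largest change was that of *Pdcd2l* (−0.21, SE 0.074), a homolog of the RPS2 chaperone PDCD2. *Pdcd2* itself was listed at 0 in all 6 libraries. Without WT replicate 1, *Eif5a* and *Heatr3*, a chaperone of RPL5, passed the threshold, both lower in KO cells.

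Of 14 genes of mTORC1 and of the control of TOP translation, 4 were higher and 10 lower (median log2 fold change −0.086, 0 past the threshold). Leaving out 1 WT library moved this median to −0.14 (replicate 1), −0.040 (replicate 2) or −0.033 (replicate 3). *Eif4ebp1*, the inhibitor of cap-dependent translation that mTORC1 phosphorylates, had an FPKM of 25.5, 73.2 and 73.0 in WT and 21.8, 22.4 and 25.9 in *Hif1a* KO libraries. Here too WT replicate 1 lay with the KO libraries. This gave a log2 fold change of −1.11 (SE 0.39, adjusted p = 0.626 by limma) and one of −1.61 without WT replicate 1 (adjusted p = 0.001, with 0.001 to 1 over all alternatives). *Larp1*, which represses TOP mRNAs, had an FPKM of 68.7, 85.3 and 84.9 in WT and 70.8, 66.3 and 58.9 in KO libraries, with a log2 fold change of −0.28 (SE 0.11, adjusted p = 0.626) and −0.38 without WT replicate 1 (adjusted p = 0.046, with 0.039 to 1 over all alternatives).

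*Rps27l* is itself a p53 target, and the p53 list was set beside it. All 9 genes tested had lower values in the KO libraries (median log2 fold change −0.54), with 0 past the adjusted threshold and 3 at an unadjusted p under 0.05. Without WT replicate 1, 7 of the 9 passed, all lower, with a median of −0.87, against 9.40% of all genes tested, while leaving out WT replicate 2 gave a median of −0.36 and 0 calls. *Cdkn1a*, the p53 target that halts the cell cycle, had an FPKM of 21.6, 123 and 110 in WT and 26.7, 20.4 and 16.9 in KO libraries. *Phlda3*, a p53 target that restrains AKT, had an FPKM of 9.46, 42.2 and 38.8 in WT and 12.1, 10.7 and 9.59 in KO libraries. *Sesn2*, which restrains mTORC1 when leucine is short, had an FPKM of 11.0, 32.5 and 30.01 in WT and 10.4, 10.6 and 10.2 in KO libraries. In all 3, as in *Rps27l* and in *Eif4ebp1* of the mTORC1 list, WT replicates 2 and 3 were high and the other 4 libraries low. *Zmat3*, another p53 target, had an FPKM of 11.8, 29.2 and 28.0 in WT and 14.9, 12.4 and 10.5 in KO libraries. *Rps27* did not follow this pattern, since its lowest values were those of WT replicates 2 and 3.

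**Figure D5:**
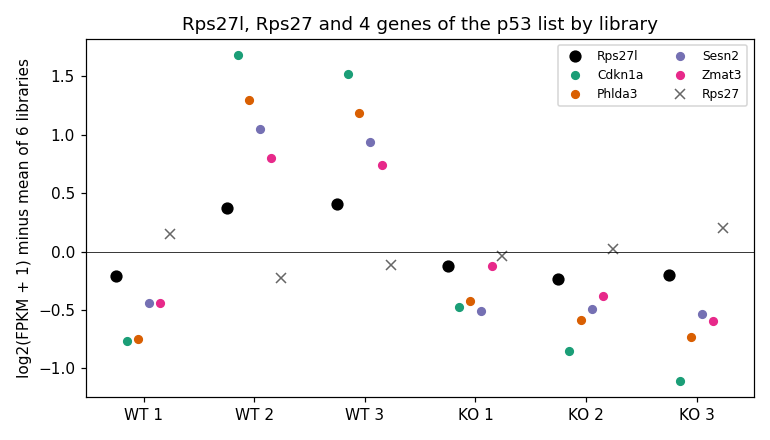
Log2(FPKM + 1) of *Rps27l* (black), *Rps27* (crosses) and 4 genes of the p53 list in each of the 6 libraries, as the difference from the gene's mean over the libraries. *Rps27l* and the 4 genes are above 0 in WT replicates 2 and 3 only, while *Rps27* is below 0 there.

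Among the lists of other cell states, 12 of the 15 proliferation genes tested had lower values without *Hif1a* (median log2 fold change −0.12, 0 past the threshold), and leaving out 1 library moved the median to between −0.19 (WT replicate 1 out) and −0.029 (KO replicate 3 out). The plasma cell markers had a median of 0.43 (6 of 7 tested higher) and the B-cell markers one of 0.059 (5 of 8 higher). The median was −0.46 for the macrophage and monocyte markers (5 of 6 tested lower), −1.07 for the 4 neutrophil markers tested, −0.26 for the dendritic cell markers (6 of 6 lower), −1.22 for the erythroid markers (3 of 3 lower) and 0.11 for the 2 T cell markers tested. In each of these lists 0 genes passed the adjusted threshold. *Ccr7* held most of the summed FPKM of the dendritic cell markers, with a mean of 92.6 in WT and 76.4 in KO libraries. The erythroid markers were low, with a sum of at most 16.3 in any library. The size of several of the list medians depended on single libraries. Without WT replicate 1 the neutrophil median was 0.0, and the medians were −0.71 for the macrophage and monocyte, −1.91 for the erythroid and 0.71 for the plasma cell markers. Leaving out each library in turn, the plasma cell median ranged from 0.18 (without *Hif1a* KO replicate 3) to 0.71, the macrophage and monocyte median from −0.71 to −0.26 (without WT replicate 2), the erythroid median from −1.91 to −0.80 (without WT replicate 2), the dendritic cell median from −0.41 (without *Hif1a* KO replicate 3) to −0.18 and the B-cell median from −0.011 (without *Hif1a* KO replicate 2) to 0.13. Leaving out 1 library at a time, these lists held calls only without WT replicate 1, where 9.40% of all genes tested passed. *Jchain*, *Prdm1*, *Cd79b* and *Lck* were then higher and *C1qa*, *Lyz2*, *Zbtb46*, *Hba-a1* and *Hbb-bs* lower in KO cells. *Lck* had an FPKM of 131, 96.2 and 90.1 in WT and 137, 133 and 136 in KO libraries. The other T cell marker tested, *Cd5*, was lower (−0.24 without WT replicate 1). The rest of the 8 T cell markers had a mean FPKM under 0.5, so *Lck* does not stand for that list. Plasma cell markers and ribosomal protein genes were both lowest in WT replicates 2 and 3 and highest in *Hif1a* KO replicate 3, and the part of plasma cell content in the values of the members was not tested.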

How the data were processed

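Bulk RNA-seq was available for 3 WT and 3 *Hif1a* KO libraries, grouped by the sample labels. The authors removed low-quality reads, used TopHat for alignment to mm10 and HTSeq for counts per gene, and deposited FPKM values, which are normalized for gene length and depth. Annotation release, strand option and handling of multiple alignments are not given in the sources used here. Symbols came from GENCODE vM21 (46488 of 46983 IDs). Read numbers were recovered from the FPKM values as whole numbers within 0.01 reads for all 25717 genes above 0. Where no single annotated transcript gave whole numbers, the shortest length that did was taken, so success there was no check. Among genes with a single annotated transcript, 93.3% to 93.9% of low values were whole at that length. The recovered reads summed to 99.7% of the FPKM denominator in each library. Genes whose mean FPKM reached 0.5 were tested in R 4.3.3 with limma 3.58.1 on log2(FPKM + 1), with no covariates and Benjamini-Hochberg adjustment, and the fit was checked on simulated data. Python 3.11.15 (scipy 1.17.1, matplotlib 3.10.9) was used for the rest.

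Members and gene lists were chosen with earlier results of these data known. The members named are the 5 largest increases and 5 largest decreases with a mean FPKM of at least 5, the 5 highest and 5 lowest levels, the paralogs with their core genes, and 13 members with known roles. From other lists, up to 4 genes with the largest changes were named, and 1 listed gene is not reported here. Alternatives changed the pseudocount, filter, scaling, variance model, library weights, the replicate block, the count model or left out 1 library.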

Additional observations from a re-analysis of the deposited data

How the results depend on the processing

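Of 5 family results, both subunit medians and the summed-share difference moved by less than 1 SD of the libraries under every alternative run. The share was 0.470 percentage points higher in *Hif1a* KO, with an SD of 0.689 in WT and 0.438 in KO libraries. Since these SDs are close to the difference itself, that limit is wide and does not show a stable size. The difference shrank to 0.128 once WT replicate 2 was dropped and to 0.275 once KO replicate 3 was. Dropping WT replicate 1 raised it to 0.817, and KO stayed higher in each run. By limma with Benjamini-Hochberg adjustment, 0 genes and 0 members were called in the 6 libraries. Leaving out 1 library gave between 0 and 1251 genes and between 0 and 1 member, with 1251 genes and 1 member without WT replicate 1, 1 gene and 0 members without *Hif1a* KO replicate 1 and 0 of both otherwise. Library weights gave 1449 genes and 1 member (*Rps27l* each time). With the replicate number as a block, 0 genes and 0 members were called and the medians were 0.040 and 0.090. Between same-numbered libraries, deviations from the genotype mean had correlations of −0.099, 0.14 and −0.28. With 3 libraries a genotype and WT replicate 1 apart from the other WT libraries, these cannot show whether the numbers mark pairs. Of 33 named members, 11 changed sign in at least 1 of 17 alternatives. Under quantile normalization the log2 fold change was −0.014 for *Rpl10*, −0.026 for *Rpl17*, 0.0092 for *Rpl29*, −0.019 for *Rpl3*, −0.013 for *Rps19* and −0.0015 for *Rpsa*. Under median-ratio scaling it was 0.036 for *Rplp2* and 0.021 for *Rps26*, and under library weights −0.11 for *Rpl24*, 0.17 for *Rpl29* and 0.0042 for *Rplp2*. Leaving out 1 library gave −0.016 to 0.095 for *Rpl10*, −0.082 to 0.079 for *Rpl17*, −0.16 to 0.13 for *Rpl24*, −0.23 to 0.26 for *Rpl29*, −0.013 to 0.093 for *Rplp0*, −0.0068 to 0.072 for *Rplp1*, −0.043 to 0.013 for *Rplp2* and −0.069 to 0.0031 for *Rps26*. The cause was not tested. At this depth *Rpl24* and *Rpl29* rest on 127 and 348 reads, and 3 libraries a genotype left a median interval of 0.20 to either side of a core gene's log2 fold change.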
